A study of Mus musculus with 6 samples.

Results

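Transcripts of the Hippo module were counted in 6 libraries of polyadenylated RNA from SB28, a glioma line of the mouse strain C57BL/6 by its label. By genotype 3 libraries are PP2A KO and 3 are Wild Type, and the titles name PP2Ac, the subunit that carries the activity of the phosphatase PP2A. Members are the 39 table rows, of 55453, whose symbol is on a list of Hippo kinases and adaptors, YAP and TAZ, TEAD factors and YAP-TEAD target genes. They fall into 24 upstream parts and 15 targets. All 39 passed the filter on low counts and were tested. Knockout was compared with wild type in a study whose title names STING and interferon. How the knockout was made, whether a group is 1 clone, and whether replicates were separate cultures is not stated in the labels. The p-values therefore measure only how these libraries vary, and that variation may be technical.

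The design text of the series describes tumours grown in wild-type mice and in LysMcrePP2Acfl/fl mice, a strain in which Cre acts in myeloid cells. The sample labels name SB28 itself as the source, and which cells carried the deletion is not settled by the labels. Library totals ran from 38735864 to 49344079 counts. Ppp2ca, the gene of the catalytic subunit, had 274, 244 and 247 CPM (counts scaled to a common library size) in wild type 1, 2 and 3, against 217, 187 and 193 CPM in the knockouts. The log2 change was -0.36 (standard error 0.08, edgeR quasi-likelihood test, adjusted p = 0.00377). Opposite-strand exons overlap 41.3% of its exon bases, and which part was altered is not given, so this level tests the label only weakly. Ppp2cb, the paralog, rose from 85.9 ± 2.28 to 125 ± 2.05 CPM (SD, n = 3; adjusted p = 6.34e-05). Of 9 myeloid markers, Adgre1, C1qa and Tyrobp had a count of 0 in all libraries. The summed level of the list was 3.17 to 3.58 CPM in wild type, against 4.75 to 5.31 CPM in knockout, most of it Cd68. Cd68 went from 3.01 to 4.43 CPM, and Lyz2 from 1 count in the wild-type libraries together to 44 in the knockouts. Ptprc and Csf1r went the other way, from 31 to 11 and from 23 to 10 counts. Of 5 endothelial markers Cldn5 was at 0 counts and Pecam1 at 0.282 and 0.344 CPM, while Cdh5 alone reached 415 and 435 CPM. Kdr was at 1.65 CPM in wild type, against 7.78 CPM in knockout, and Tek at 1.40 and 0.295 CPM. The part of these cell type markers in the results was not tested. In bulk libraries fewer cells of a type and less RNA per cell cannot be told apart.

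The Hippo pathway is a kinase cascade that holds back growth. The MST kinases, with the scaffold SAV1, activate the LATS kinases, which work with MOB1 and phosphorylate the coactivators YAP and TAZ. Phosphorylated YAP and TAZ are kept out of the nucleus or degraded. When the cascade is off they bind TEAD transcription factors and switch on targets such as Ankrd1 and Axl. PP2A takes part in the pathway within the STRIPAK complex, which removes activating phosphate from MST kinases. The pathway is thus run mainly by phosphorylation and location of proteins, which RNA counts do not measure.

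Members moved both ways, mostly by small steps. Of the 39, 15 were higher in knockout, 14 lower and 10 did not pass the threshold of 0.05 on the adjusted p. Calls made up 74.4% of the members, against 64.0% of all 14877 genes tested. By direction, 38.5% of members were higher and 35.9% lower, against 31.9% and 32.1% of all genes. The groups did not overlap for 28 members (71.8%), against 68.3% of all genes. The median size of the log2 fold change, whatever its sign, was 0.37 over the members and 0.47 over all genes. Against a fold change of 1.5, 5 members passed (12.8%), where 26.7% of all genes did. These 5 were the upstream gene Wwc1 and the targets Ankrd1, Gadd45b, Foxf2 and Igfbp3. By part, 1 of 24 upstream members (4.2%) and 4 of 15 targets (26.7%) passed, so the targets stood at the share of all genes. Of the 24 upstream members 11 were higher, 7 lower and 6 not past the threshold, and of the 15 targets 4 were higher, 7 lower and 4 not past it. With the replicate number as a block, 14 upstream members were higher and 8 lower, and 4 targets were higher and 8 lower. Calls rose over all genes too in that fit, to 5721 higher and 5774 lower of 14877.

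**Figure D1:**
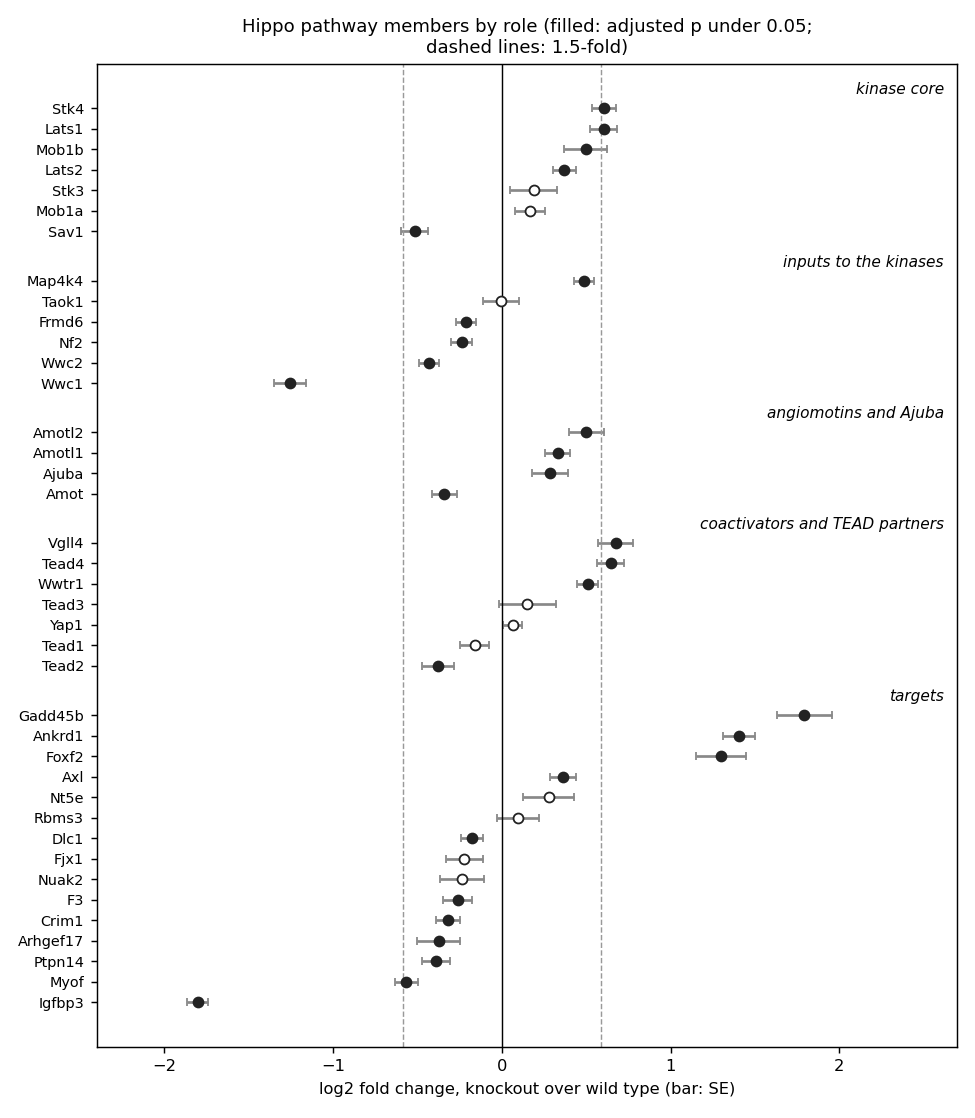
Log2 fold change of each of the 39 members, knockout over wild type, with its standard error, grouped by role, where filled points have an adjusted p under 0.05 and dashed lines mark a 1.5-fold change. Most upstream members lie between the dashed lines, Wwc1 lies at -1.26, and the targets run from Igfbp3 at -1.80 to Gadd45b at 1.79.

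Of the 7 genes in the core of the cascade, 4 were called higher and 1 lower. Calls made up 71.4% of them, against 64.0% of all genes, with 57.1% higher and 14.3% lower, against 31.9% and 32.1%. Stk4, Lats1, Lats2 and Mob1b rose, Sav1 fell, and Stk3 and Mob1a did not pass the threshold. Stk4, which encodes the kinase MST1, had 60.6, 59.1 and 58.0 CPM in wild type 1, 2 and 3 and 96.7, 88.5 and 85.3 CPM in knockout 1, 2 and 3. Every knockout library lay above every wild-type library, with a log2 fold change of 0.61 (standard error 0.07, adjusted p = 7.77e-05). Its paralog Stk3, the gene of MST2, had 89.9, 74.7 and 72.4 CPM against 110.4, 78.1 and 81.5 CPM. These values overlap, since wild type 1 exceeded knockout 2 and 3 (log2 change 0.19, standard error 0.14, adjusted p = 0.264). With the replicate number as a block Stk3 passed (0.18 in log2, adjusted p = 0.00147), as it did without both libraries numbered 1 (0.0102), and its adjusted p ran from 0.00147 to 0.832 over the alternatives.

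The 2 LATS kinases, which phosphorylate YAP and TAZ directly, moved the same way. Lats1 had 129, 120.1 and 114 CPM in wild type, against 201, 174 and 177 CPM in the knockouts (log2 change 0.60, standard error 0.08, adjusted p = 0.000178). Lats2, itself a known YAP target, had 56.8, 61.6 and 58.4 CPM against 78.1, 73.1 and 77.4 CPM (log2 change 0.37, standard error 0.07, adjusted p = 0.00116). For both genes the groups were apart. A further annotated gene, Gm49361, covers 42.4% of the exon bases of Lats2 on the same strand and was listed with a count of 0 in all 6 libraries, so how reads in the shared part were counted is uncertain.

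Mob1b, an activating partner of LATS, rose from 92.6 ± 10.6 to 131 ± 22.6 CPM (SD, n = 3; log2 change 0.50, standard error 0.13, adjusted p = 0.00801), with knockout 1 highest at 157 CPM. Mob1a, the more abundant MOB1 gene, had 195 ± 15.9 and 219 ± 20.4 CPM (log2 change 0.17, standard error 0.09, adjusted p = 0.128). It passed with the replicate block (adjusted p = 0.000463), without wild type 1 (0.0443) and without both libraries numbered 1 (0.000467), over a range of 0.000463 to 0.354. Sav1, the scaffold that joins MST to LATS, was the member of the core that fell. It had 124, 114 and 116 CPM in wild type, against 90.8, 76.3 and 79.9 CPM in the knockouts, with no overlap (log2 change -0.52, standard error 0.08, adjusted p = 0.000519). Exons of Atl1 on the opposite strand cover 25.4% of the Sav1 exon bases, and Atl1 itself had 3.79 and 3.53 CPM.

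Among the proteins that feed into the kinases, 4 genes fell, 1 rose and 1 did not pass. Calls made up 83.3% of these 6, against 64.0% of all genes, with 66.7% lower and 16.7% higher, against 32.1% and 31.9%. Wwc1, the gene of KIBRA, a membrane scaffold that activates LATS together with NF2, was the upstream member with the largest change. It had 47.0, 55.2 and 52.8 CPM in wild type, against 19.7, 22.4 and 22.8 CPM in the knockouts. Each knockout library lay below each wild-type library, and the fitted level of the group was 2.39-fold lower (log2 change -1.26, standard error 0.09, adjusted p = 4.15e-06, and 6.72e-05 against a fold change of 1.5). Its paralog Wwc2 fell from 188 ± 4.98 to 139.5 ± 0.428 CPM (log2 change -0.43, standard error 0.06, adjusted p = 0.000212). Cldn22, which overlaps 7.22% of its exon bases from the other strand, had a count of 0 in all libraries. Among the members not yet named for it, such overlap reached at most 4.15% of exon bases, in Foxf2.

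Nf2, the gene of merlin, fell by 0.24 on the log2 scale (standard error 0.06, adjusted p = 0.00848), from 117, 123 and 119.8 CPM to 98.1, 105 and 102 CPM. Frmd6, related to merlin in its FERM domain, fell by 0.21 (standard error 0.06, adjusted p = 0.0144). Leaving out wild type 2 (adjusted p = 0.0642), wild type 3 (0.0572) or knockout 2 (0.0727) ended that call, over a range of 1.41e-05 to 0.0727. Map4k4, a kinase that can activate LATS in parallel to MST, rose with no overlap. Its levels were 347, 374 and 364 CPM in wild type, against 499, 517 and 503 CPM in the knockouts (log2 change 0.49, standard error 0.06, adjusted p = 0.000124). Taok1, a kinase that activates MST, had 235 ± 14.1 and 234 ± 36.5 CPM (adjusted p = 0.974), with knockout 1 at 276 CPM above the other 5 libraries. Without both libraries numbered 1 its log2 fold change of -0.08 passed (adjusted p = 0.0411), and its highest adjusted p over the alternatives was 0.992.

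The angiomotins and Ajuba bind YAP or LATS at cell junctions. Amotl1 and Amotl2 rose and Amot fell. Amotl2, also known as a YAP target, had 142, 179 and 172 CPM in wild type against 206, 242 and 249 CPM in knockout (log2 change 0.50, standard error 0.11, adjusted p = 0.00265). Amotl1 rose from 143 ± 9.61 to 179 ± 7.06 CPM (log2 change 0.33, standard error 0.07, adjusted p = 0.00338). Amot, on the X chromosome, fell from 48.0 ± 1.72 to 37.9 ± 2.49 CPM (log2 change -0.34, standard error 0.08, adjusted p = 0.00357). Ajuba, a LIM protein that inhibits LATS, rose from 109.7 ± 13.1 to 134 ± 13.9 CPM, but the groups overlapped, since knockout 1 at 117.9 CPM lay below wild type 2 at 118.3 CPM. Its adjusted p of 0.0428 rose to 0.114 without wild type 1, 0.0598 without wild type 3, 0.101 without knockout 2 and 0.137 without knockout 3, and the call was also lost with upper-quartile factors, from a lowest value of 6.20e-07.

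TAZ rose and YAP did not pass the threshold. Wwtr1, the gene of TAZ, had 322, 314 and 311 CPM in wild type, against 471, 435 and 442 CPM in the knockouts (log2 change 0.51, standard error 0.06, adjusted p = 0.0001). Yap1 had 175, 181 and 180.3 CPM against 187, 183 and 189.7 CPM. All knockout libraries were above all wild-type libraries for Yap1 too, but by little (log2 change 0.06, standard error 0.06, adjusted p = 0.37), and with upper-quartile factors the sign of its fold change turned. Per kilobase of exon, the scale on which genes can be compared, Wwtr1 was the more abundant of the pair in every library. Its share of the summed Yap1 and Wwtr1 level was 78.1%, 77.1% and 76.9% in wild type and 83.0%, 82.2% and 81.9% in knockout. With the longest transcript as the length the shares were 66.5% and 73.0%, so the size of the share depends on the length used and the order does not.

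The TEAD factors, which carry YAP and TAZ to DNA, changed in make-up more than in sum. Tead4 had 51.0, 58.6 and 55.0 CPM in wild type, against 79.7, 89.5 and 88.4 CPM in the knockouts, with no overlap (log2 change 0.65, standard error 0.08, adjusted p = 0.000112). Tead2 moved the other way, from 91.7, 105.6 and 102.7 CPM to 68.0, 80.4 and 82.5 CPM (log2 change -0.38, standard error 0.09, adjusted p = 0.00618). Its groups did not overlap either. Tead1 had 371 ± 14.5 and 332 ± 36.9 CPM (log2 change -0.16, standard error 0.09, adjusted p = 0.13) and Tead3, the rarest, 25.4 ± 4.23 and 28.3 ± 5.91 CPM (0.15, standard error 0.17, adjusted p = 0.458). With the replicate block both passed, Tead1 at adjusted p = 0.00144 and Tead3 at 0.028. Over the alternatives Tead1 ran from 1.93e-05 to 0.404 and Tead3 from 0.00835 to 0.917. Without knockout 1 the fold change of Tead3 was 0.33 and passed (adjusted p = 0.0422), and Tead1 passed as well (0.00788). Both also passed without both libraries numbered 1, and Tead1 with upper-quartile factors (0.0418).

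Per kilobase of exon the 4 TEAD genes summed to 67.3 ± 2.57 CPM (wild type) and 68.6 ± 1.29 CPM (knockout). Within that sum Tead4 made up 21.9%, 23.3% and 22.8% in wild type and 33.0%, 35.8% and 35.5% in knockout. Tead2 made up 29.5%, 31.5% and 32.0% against 21.2%, 24.1% and 24.9%. The share of Tead1 was 40.7 ± 2.72% and 35.7 ± 4.66% (SD, n = 3) and that of Tead3 5.62 ± 0.755% and 6.12 ± 1.19%, both with overlapping groups. In wild type the order was Tead1, Tead2, Tead4 and Tead3. In knockout Tead4 stood above Tead2. Tead4 was above Tead1 in 2 of 3 knockout libraries per kilobase of exon, but below it in all 3 with the longest transcript, so that order is uncertain. These shares do not depend on the scaling between libraries, and with the longest transcript as the length Tead4 went from 19.4% to 30.3%. Vgll4, a protein that competes with YAP for TEAD, rose with Tead4. Its levels were 18.4, 21.7 and 20.9 CPM against 28.7, 35.2 and 33.5 CPM (log2 change 0.68, standard error 0.10, adjusted p = 0.000417). Vgll4 did not pass against a fold change of 1.5 in the fit of all libraries (adjusted p = 0.222), but it did with the replicate block, without knockout 1 and without both libraries numbered 1.

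**Figure D2:**
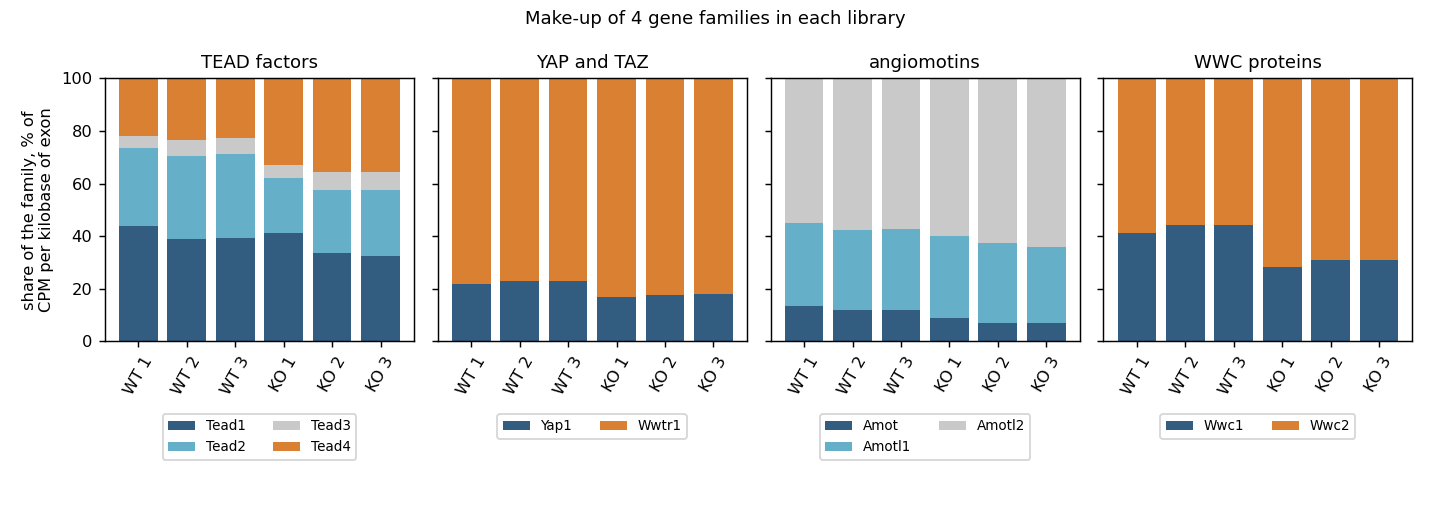
Share of each gene in the summed level of its family, in percent of CPM per kilobase of exon, for each of the 3 wild-type (WT) and 3 knockout (KO) libraries. The Tead4 share lies at 21.9% to 23.3% in wild type and 33.0% to 35.8% in knockout, and the Wwc1 share at 41.2% to 44.3% and 28.3% to 31.1%.

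Shares also moved in the other paralog families. Wwc1 made up 43.2 ± 1.73% of the WWC level per kilobase in wild type and 30.1 ± 1.59% in knockout (34.4% and 22.9% with the longest transcript), and Wwc2 was the larger in every library with both lengths, while the sum of Wwc1 and Wwc2 went from 24.1 ± 1.11 to 14.5 ± 0.363 CPM per kilobase. Amotl2 led the angiomotins with 56.7 ± 1.53% and 62.3 ± 2.13%, and the Amot share went from 12.5 ± 0.744% to 7.64 ± 1.05%. Lats1 held 66.2 ± 1.91% and 69.7 ± 1.28% of the LATS level. For the MST pair the order of the mean shares in knockout turned with the length used. Stk3 held 56.0 ± 2.36% in wild type and 48.6 ± 3.29% in knockout per kilobase of exon, but 67.8% and 61.0% with the longest transcript. Per kilobase of exon the order also differed among knockout libraries, with Stk3 at 52.3%, 45.8% and 47.8% in knockout 1, 2 and 3.

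The targets did not move as a block. Of 15, Ankrd1, Gadd45b, Foxf2 and Axl rose, and Igfbp3, Myof, Ptpn14, Arhgef17, Crim1, F3 and Dlc1 fell. Their median log2 fold change was -0.22, and that of all tested genes -0.01. Calls made up 73.3% of the targets, against 64.0% of all genes, with 26.7% higher and 46.7% lower, against 31.9% and 32.1%. Ankrd1, an ankyrin repeat protein and one of the most used readouts of YAP, had 48.5, 39.1 and 41.4 CPM in wild type, against 121.8, 108 and 112 CPM in the knockouts. Every knockout library was above every wild-type library, and the fitted difference between the groups was 2.65-fold (log2 change 1.41, standard error 0.09, adjusted p = 2.48e-06, and 2.69e-05 against a fold change of 1.5).

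Gadd45b, a stress-induced gene of growth arrest that is also induced through NF-kB, had 8.40, 11.1 and 12.5 CPM against 30.4, 39.1 and 41.1 CPM (log2 change 1.79, standard error 0.16, adjusted p = 1.55e-05). Foxf2, a forkhead transcription factor of mesenchymal cells, had 18.3, 24.7 and 23.8 CPM against 44.7, 59.8 and 59.7 CPM (log2 change 1.30, standard error 0.15, adjusted p = 6.26e-05). In both genes the library numbered 1 was the lowest of its group, and the groups were apart. Axl, a receptor tyrosine kinase, was among the most abundant members. It had 802, 893 and 883 CPM in wild type, against 1022, 1146 and 1144 CPM in the knockouts (log2 change 0.36, standard error 0.08, adjusted p = 0.00258), with no overlap.

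Igfbp3, a secreted protein that binds insulin-like growth factors, fell furthest of all members. It had 741, 765 and 757 CPM in wild type, against 213, 226 and 211 CPM in the knockouts, with no overlap (log2 change -1.80, standard error 0.06, adjusted p = 5.18e-08, and 1.88e-07 against a fold change of 1.5). Per kilobase of exon Igfbp3 was the most abundant of the 39 in wild type, at 241 ± 3.83 CPM, against 69.1 ± 2.54 CPM in knockout, where Axl at 219 ± 14.1 and Wwtr1 at 94.0 ± 3.94 CPM stood above it. With the longest transcript as the length Igfbp3 was first in wild type too, and ranked 4 in knockout. Myof, a ferlin of membrane repair, had 1149, 1126 and 1076 CPM against 797, 733 and 734 CPM (log2 change -0.57, standard error 0.07, adjusted p = 7.56e-05). It did not pass against a fold change of 1.5 (adjusted p = 0.774).

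**Figure D3:**
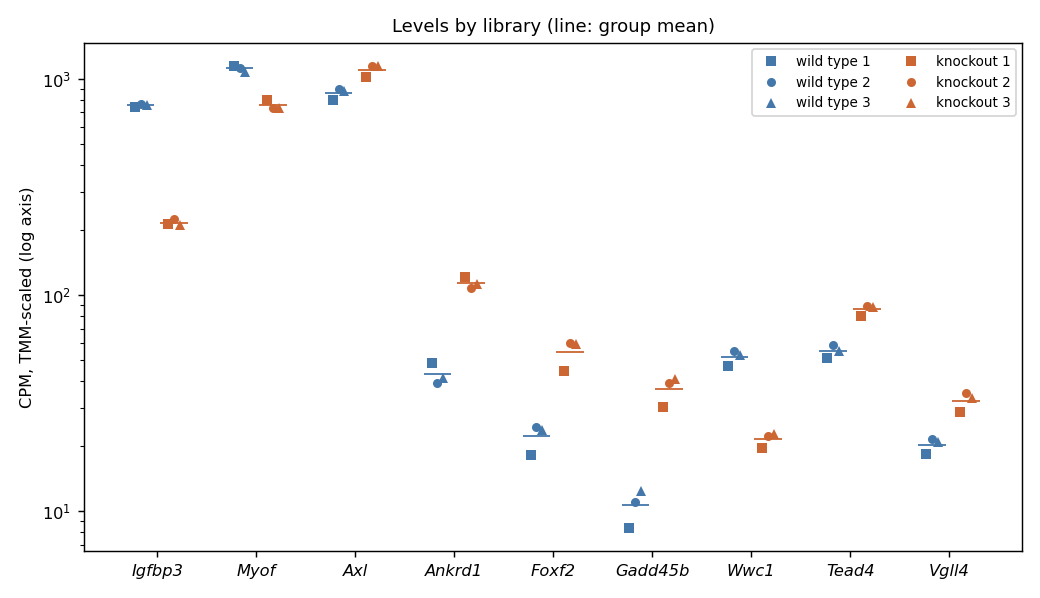
CPM on a log axis in each library for 9 members named in the text, with a symbol for each replicate number and a line at the group mean. The 9 were picked for display and all have groups that are apart, as do 28 of the 39 members (71.8%) and 68.3% of all genes. Igfbp3 lies at 741 to 765 CPM in wild type, against 211 to 226 CPM in knockout, and Ankrd1 at 39.1 to 48.5 and 108 to 121.8 CPM.

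Apart from Igfbp3, the targets that fell did so by less than 1.5-fold, Myof at 1.48-fold included. Ptpn14, a phosphatase that also binds YAP and holds it back, had 176, 208 and 202 CPM in wild type, against 140.3, 159 and 148 CPM in the knockouts (log2 change -0.39, standard error 0.08, adjusted p = 0.00294). Crim1, a membrane protein that binds bone morphogenetic proteins, fell from 129 ± 8.93 to 103 ± 3.47 CPM (log2 change -0.32, standard error 0.07, adjusted p = 0.00399). Both genes had no overlap between the groups. Arhgef17 had 143 ± 22.0 and 110.3 ± 13.9 CPM with overlapping groups (log2 change -0.37, standard error 0.13, adjusted p = 0.0301), and did not pass when wild type 2 (0.111), wild type 3 (0.0962) or knockout 1 (0.0658) was left out, over a range of 3.75e-09 to 0.111.

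F3, the gene of tissue factor, fell by 0.26 on the log2 scale (standard error 0.09, adjusted p = 0.026), and Dlc1 by 0.17 (standard error 0.07, adjusted p = 0.0421). F3 no longer passed when wild type 1 (0.0782), wild type 3 (0.0661), knockout 2 (0.0823) or knockout 3 (0.113) was left out, over a range of 0.00028 to 0.113. Dlc1 no longer passed without wild type 1 (0.053), wild type 2 (0.153), wild type 3 (0.0948), knockout 2 (0.13) or knockout 3 (0.169), and with DESeq2 size factors (0.057), DESeq2 (0.0543) or no filter (0.139), from a lowest value of 8.78e-05. Without wild type 3 the test called 4 targets lower instead of 7.

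The 4 targets that did not pass were Fjx1, Nt5e, Nuak2 and Rbms3. Fjx1, a Golgi kinase of the Fat and Dachsous branch, had 36.3 ± 4.67 and 31.1 ± 2.68 CPM (log2 change -0.22, standard error 0.11, adjusted p = 0.108). It passed with the replicate block (adjusted p = 0.000701), without wild type 1 (0.0147), without both libraries numbered 1 (0.000184) and with upper-quartile factors (0.0473), over a range of 0.000184 to 0.299. Nuak2, a kinase of the AMPK family, had 4.74 ± 0.648 and 4.02 ± 0.203 CPM (adjusted p = 0.144) and passed without wild type 1 (0.0333) and without both libraries numbered 1 (0.0296), over a range of 0.0296 to 0.390. Nt5e, the ectoenzyme CD73, was the rarest member at 2.46 ± 0.331 and 2.99 ± 0.317 CPM (adjusted p = 0.133). Rbms3, an RNA-binding protein, had 25.3 ± 1.45 and 27.1 ± 4.86 CPM (adjusted p = 0.523), and the sign of its fold change turned without knockout 1 and without both libraries numbered 1.

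Promoter sequence was compared with these changes. TEAD factors bind the motif GGAATG or its complement CATTCC, searched on both strands from 250 bases before to 50 bases after each annotated start in the RefSeq promoter table (GRCm38.p6). That table held 31 of the 39 members. Stk3, Map4k4, Tead1, Tead4, Arhgef17, Fjx1, Dlc1 and Nuak2 had no entry. The motif stood in a window of 10 of 20 upstream members and 4 of 11 targets, and in 16.6% of the 27025 genes of the table. By window the shares were 48% of 25, 33.3% of 12 and 14.7% of 32851. Windows of a gene can overlap, and both windows of Wwtr1 hold the same match, so the shares by window count that match more than once. The windows before the start are shown for Ankrd1, the target with a raised level and 2 matches, Ptpn14, a target with 1 match that fell, Wwc2, which has 3 matches and fell, and Igfbp3, which fell furthest and has no match. Capitals mark the motif, and each run of bases is written along the gene's strand.
Ankrd1 promoter, chr19:36119845-36120094, minus strand: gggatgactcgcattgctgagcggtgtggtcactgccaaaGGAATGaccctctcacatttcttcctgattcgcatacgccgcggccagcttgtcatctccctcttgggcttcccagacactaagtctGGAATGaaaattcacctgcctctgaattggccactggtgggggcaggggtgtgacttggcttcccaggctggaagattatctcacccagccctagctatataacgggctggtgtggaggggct
Ptpn14 promoter, chr1:189728018-189728267, plus strand: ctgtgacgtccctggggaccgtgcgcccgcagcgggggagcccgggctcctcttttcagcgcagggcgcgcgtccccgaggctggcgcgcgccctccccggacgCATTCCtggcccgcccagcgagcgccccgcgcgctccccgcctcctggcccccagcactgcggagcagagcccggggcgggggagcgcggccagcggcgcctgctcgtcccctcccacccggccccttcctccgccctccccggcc
Wwc2 promoter, chr8:47990545-47990794, minus strand: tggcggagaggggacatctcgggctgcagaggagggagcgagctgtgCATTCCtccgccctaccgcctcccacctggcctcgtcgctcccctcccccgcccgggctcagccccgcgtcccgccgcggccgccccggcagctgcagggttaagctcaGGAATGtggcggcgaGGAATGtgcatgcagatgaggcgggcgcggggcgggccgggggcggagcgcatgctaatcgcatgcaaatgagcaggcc
Igfbp3 promoter, chr11:7213924-7214173, minus strand: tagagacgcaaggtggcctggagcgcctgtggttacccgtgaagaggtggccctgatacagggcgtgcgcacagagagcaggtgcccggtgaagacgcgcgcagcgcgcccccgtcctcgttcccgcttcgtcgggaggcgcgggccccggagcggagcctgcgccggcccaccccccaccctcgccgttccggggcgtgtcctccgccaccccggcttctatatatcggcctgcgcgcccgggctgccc

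The Ankrd1 matches begin 210 and 123 bases before the start, that of Ptpn14 146 bases before it, and those of Wwc2 203, 94 and 79 bases before it. The targets with a match were Ankrd1 and Axl, which rose, and Crim1 and Ptpn14, which fell. Of the 4 targets past the test against a fold change of 1.5, Ankrd1 had a match and Gadd45b, Foxf2 and Igfbp3 had none in their windows. Of the 10 upstream genes with a match, 5 rose (Ajuba, Amotl2, Lats2, Vgll4 and Wwtr1), 2 fell (Sav1 and Wwc2) and 3 did not pass (Mob1a, Tead3 and Yap1). Over all tested genes 31.9% were higher, 32.1% lower and 64.0% called in either direction. Whether the motif goes with the direction of change was not tested, and these counts are too small to show it. A match is a stretch of letters, not a measured binding site, and binding farther from the start was not examined.

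Both libraries numbered 1 departed from the others of their group, and for these genes in a like way. The difference between library 1 and the mean of libraries 2 and 3, in log2 CPM, had the same sign in wild type and knockout for 34 of 39 members (87.2%), against 77.4% of all tested genes. Across the 39 members the departures in the 2 groups had a Pearson r of 0.92 and a Spearman rank correlation of 0.93, against 0.44 and 0.59 across all tested genes, where all points share the same 6 libraries. Level was not matched between the members and all tested genes, and low counts add noise that lowers such correlations. The contrast therefore does not show a trait of these genes. Tead3 was lower in library 1 by 0.43 in wild type and 0.55 in knockout, Gadd45b by 0.48 and 0.40 and Foxf2 by 0.41 and 0.42. Stk3 was higher by 0.29 and 0.47 and Mob1b by 0.28 and 0.41. The part of this departure in the results was not tested, but without both libraries numbered 1 the changes of Wwc1, Ankrd1, Gadd45b, Foxf2 and Igfbp3 still passed against a fold change of 1.5.

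**Figure D4:**
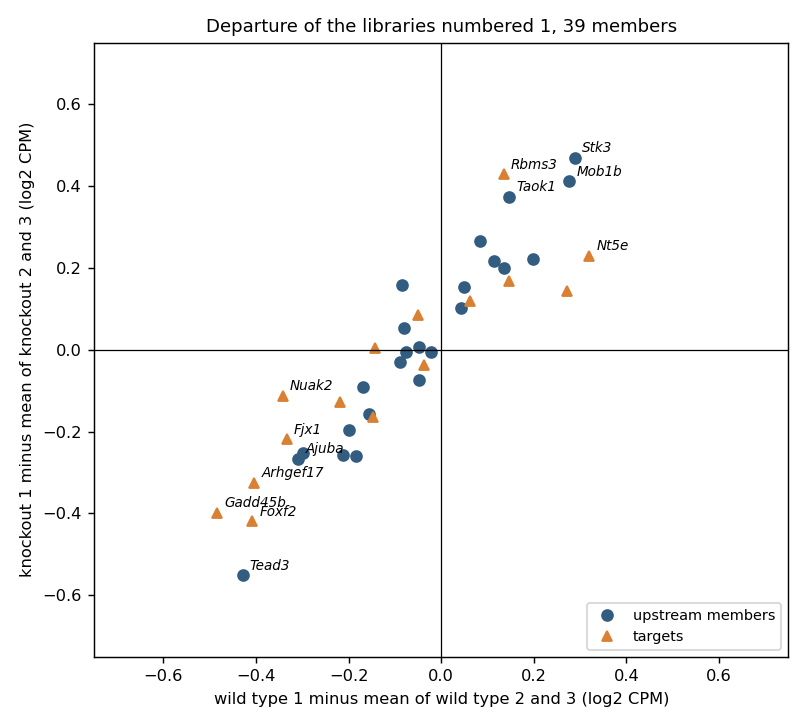
For each of the 39 members, library 1 minus the mean of libraries 2 and 3 in log2 CPM, in wild type on the x axis and in knockout on the y axis, with targets as triangles and upstream members as circles. Points run from Tead3 at the lower left to Stk3 at the upper right, and 34 of 39 have the same sign on both axes.

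Other genes of the pathway, taken from lists that were not part of the member list, also moved both ways. Of 59 further upstream genes 50 were tested, 20 were higher, 16 lower and 14 not past the threshold, and 15 passed against a fold change of 1.5. Calls made up 72% of those tested and 30% passed the 1.5-fold test, where all genes had 64.0% and 26.7%, and the median size of the log2 change was 0.43, against 0.47 over all genes. Dchs1, a giant cadherin that is the ligand of Fat4, fell from 58.8 ± 8.70 to 4.19 ± 0.708 CPM (log2 change -3.81, standard error 0.16, adjusted p = 1.19e-07), with 5.86% of its exon bases under opposite-strand exons. Mark1, a polarity kinase, rose from 17.9 ± 1.67 to 59.8 ± 1.56 CPM. Tnks, a tankyrase that marks angiomotins for breakdown, rose from 188 ± 3.31 to 395 ± 30.1 CPM, and Rassf3, of the family that binds MST kinases, fell from 123 ± 3.23 to 62.8 ± 1.41 CPM. The adjusted p values of these last 3 were 3.76e-07, 2.42e-06 and 1.87e-06.

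Of 32 further targets 17 were higher, 13 lower and 2 not past the threshold, and 17 passed against a fold change of 1.5. These are 93.8% called and 53.1% past 1.5-fold, above the 64.0% and 26.7% of all genes, with a median size of the log2 change of 0.77. The list was chosen with earlier results of these data known, so these shares cannot be read as a trait of YAP targets. Areg, an EGF receptor ligand, rose from 35.7 ± 1.92 to 186 ± 0.531 CPM (log2 change 2.38, standard error 0.07, adjusted p = 2.24e-08). Slit2, a guidance protein, rose from 152 ± 3.94 to 699.7 ± 36.7 CPM (adjusted p = 2.97e-08), and Gadd45a, a paralog of Gadd45b, from 17.9 ± 1.31 to 62.9 ± 0.324 CPM (adjusted p = 1.63e-07). Exons on the opposite strand cover 19.1% of the Gadd45a exon bases. Tagln, a smooth muscle actin-binding protein, fell from 45.6 ± 2.22 to 0.564 ± 0.0942 CPM (log2 change -6.33, standard error 0.13, adjusted p = 3.43e-09), with 67.9% of its exon bases under opposite-strand exons. Many of these genes answer to other pathways as well.

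Of 12 genes of the STRIPAK complex that restrains MST kinases, 11 were tested, 6 were higher and 0 lower, and 5 did not pass the threshold. In edgeR's quasi-likelihood test Cttnbp2nl rose from 256 ± 3.31 to 483 ± 17.4 CPM (log2 change 0.91, standard error 0.06, adjusted p = 2.29e-06) and was the single member past a fold change of 1.5. Strn4 rose from 88.3 ± 5.62 to 115 ± 13.1 CPM and Pdcd10 from 23.9 ± 4.56 to 35.9 ± 6.45 CPM, with adjusted p values of 0.00733 and 0.0101. The share called, 54.5%, lay below the 64.0% of all tested genes. By direction, 54.5% were higher and 0% lower, against 31.9% and 32.1% of all genes. This list too was chosen with earlier results of these data known. It leaves out the catalytic subunit genes of PP2A, so the count of 0 lower depends on the genes listed. Ppp2ca was called lower (log2 change -0.36) and Ppp2cb higher (0.54).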

How the data were processed

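The authors deposited a table of raw counts, with gene symbols as rows and libraries as columns. Per the submitters' processing notes, which give no roles, the tools named were HTSeq 0.11.2, STAR 2.7.1a, fastp 0.20.0, limma 3.48.3 and edgeR 3.34.0, and the builds mm10 and GRCm38. For annotation release and strand setting, sources used here give none, so reads of overlapping genes cannot be told apart. Columns were matched by sample title. Genes kept by filterByExpr (14877) were scaled by TMM and tested with the quasi-likelihood test of edgeR 4.0.16 in R 4.3.3, with glmTreat for the fold of 1.5 and Benjamini-Hochberg adjustment over all tested genes. Standard errors are the log2 change over the square root of F. CPM uses TMM-scaled library sizes. Alternatives used DESeq2 1.42.0 and voom of limma 3.58.1. The tests against no change were tried on simulated data. That run left out glmTreat, the replicate block and any departure of a library from its group. It held far fewer changed genes than were called here, so it does not cover this setting.

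Genes named are all 39 members, Ppp2ca, Ppp2cb, and up to 4 genes with the smallest adjusted p from each of 3 further lists. A gene that this rule names is not reported here. Members and lists were chosen with earlier results of these data known. Positions, exon lengths and overlaps came from GENCODE M21 (GRCm38), which matched all 39 members by symbol. Per-kilobase levels divide CPM by the union of exons. No pair of replicates agreed within sampling noise. Replicate numbers come from the titles. Deviations from the group means correlated between same-numbered libraries over all tested genes, with r = 0.44, 0.16 and 0.15 for numbers 1, 2 and 3. Wild type 3 and knockout 2 correlated at 0.19 and wild type 2 and knockout 3 at 0.15, so a pairing by numbers 2 and 3 is not settled. The main test had no term for the number, and its p-values ignore any pairing. The fit with the number as a block was an alternative and is quoted where it changes a call.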

Additional observations from a re-analysis of the deposited data

How the results depend on the processing

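Counts of calls were recomputed with other scaling factors, DESeq2, limma-voom, no filter, the replicate number as a block, each library left out and both libraries numbered 1 left out. With each library left out in turn, the count of targets called lower ran from 4 to 7, and the 4 came without wild type 3, where the cause was not tested. The other counts of members stayed within 1.5 times of their value in these fits. With the replicate block 11495 genes were called in place of 9525, and 6 members passed against a fold change of 1.5 in place of 5, the added member being Vgll4. The 5 members past that test, Wwc1, Ankrd1, Gadd45b, Foxf2 and Igfbp3, passed it in each of the 11 edgeR alternatives, which were added for this test after seeing the data. No called member changed sign. Upper-quartile factors shifted the fold changes of all genes by -0.06 at the median and gave 4298 higher and 5296 lower calls. With the longest transcript as the length, shares went from 40.6% to 36.2% for Tead1, 32.0% to 24.6% for Tead2, 59.6% to 63.4% for Lats1 and 61.8% to 67.3% for Amotl2. Nt5e and Nuak2, with under 6 CPM, have the fewest reads behind them.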
